A study of Homo sapiens with 12 samples.

Results

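The genes described here handle the entry of glucose into the cell and the sensing of its first product. They are the hexokinases HKDC1, HK1 and HK2, the glucose transporters SLC2A1 and SLC2A3, the alpha-arrestins TXNIP and ARRDC4, and the transcription factor subunits MLXIP and MLX. These 9 genes were taken by name from the 60675 Ensembl gene IDs listed for 12 RNA sequencing libraries, of which 30808 had a count in any library. HKDC1 was chosen by its rise at the high dose over vehicle and TXNIP by its fall at the medium dose, and the other 7 genes were selected by function with results of these data known. Their levels, fold changes and calls are therefore given as a description, and no p is attached to them.

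The libraries came from SW1783, an established human astrocytoma line kept in L-15, a medium that supplies galactose in place of glucose, with fetal bovine serum. A vehicle group received phosphate-buffered saline with 2% DMSO. The 2% is that of the added solution, which the culture medium diluted, and not that of the culture. A water extract of *Aconitum carmichaeli* Debeaux (ACD) was given at 20 (low dose), 100 (medium dose) and 500 µg/mL (high dose), and all 4 groups of 3 libraries were collected at 24 h. The cells are 1 unmodified line, and the sources used here do not say whether the 3 libraries of a group came from separate cultures. The SDs given below therefore measure the spread between these libraries. The SEs come from a DESeq2 fit in which all 4 groups share 1 estimate of each gene's spread, moderated across genes. Both rest on these libraries alone. The ACD stock was made in the vehicle's solvent, whereas the diluent of the lower doses is not stated.

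Hexokinases add a phosphate to glucose and so trap it in the cell as glucose 6-phosphate. HK1 is the widespread form, HK2 is an inducible form and HKDC1 is a later described member of the family. GLUT1 (SLC2A1) and GLUT3 (SLC2A3) carry glucose across the plasma membrane. MondoA, encoded by MLXIP, pairs with MLX, responds to glucose 6-phosphate and activates TXNIP and ARRDC4 through carbohydrate response elements, which are built from paired E-box-like half-sites. TXNIP binds thioredoxin and lowers glucose uptake by removing transporters from the cell surface, and ARRDC4 is its close relative.

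The promoters of TXNIP and ARRDC4 are shown because these genes are the textbook targets of MondoA and MLX. Each run is the 250 bases before the gene's start, read 5′ to 3′ on the gene's own strand from RefSeq on GRCh38.p14. The TXNIP window is chr1:145996580-145996829 on the minus strand, and its capitals mark a pair of CACGNG half-sites with 5 bases between them. The ARRDC4 window is chr15:97960453-97960702 on the plus strand, and its capitals mark a full E-box, CACGTG.
TXNIP: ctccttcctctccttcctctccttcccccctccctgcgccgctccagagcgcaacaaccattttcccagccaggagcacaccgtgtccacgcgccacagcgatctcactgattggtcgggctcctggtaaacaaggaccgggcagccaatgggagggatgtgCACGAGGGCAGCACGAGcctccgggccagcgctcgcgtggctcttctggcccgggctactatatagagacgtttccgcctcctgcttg
ARRDC4: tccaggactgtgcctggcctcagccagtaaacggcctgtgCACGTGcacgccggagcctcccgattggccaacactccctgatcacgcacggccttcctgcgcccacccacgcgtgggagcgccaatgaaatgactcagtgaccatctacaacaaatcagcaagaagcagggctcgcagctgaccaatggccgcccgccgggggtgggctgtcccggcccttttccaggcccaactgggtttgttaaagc

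Both patterns were searched on both strands. The paired half-sites, a pattern picked with the TXNIP promoter in mind, occurred in 16 of 35116 RefSeq windows of this length (0.0456%), and TXNIP was the single match among the 8 genes with a window here. The match lay 88 to 72 bases before the TXNIP start. CACGTG, whose letters also satisfy CACGNG, occurred in 2228 windows (6.34%), and among the 8 genes it was found in ARRDC4, 210 to 205 bases before the start, and in MLX, 50 to 45 bases before it. These matches describe letters in the windows and were not read as binding sites.

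HKDC1, HK2 and SLC2A3 were upregulated at the high dose, whereas TXNIP was lowest at the medium dose and HK1, SLC2A1, ARRDC4, MLXIP and MLX each stayed within 1.5-fold of vehicle at every dose. Values are normalised counts, that is, RSEM expected counts divided by the DESeq2 size factor of the library. A gene was called a differentially expressed gene (DEG) at an adjusted p below 0.05 in the DESeq2 Wald test across all genes together with a fold change above 1.5. By this criterion, at the high dose 3 of the 9 genes (HKDC1, HK2 and SLC2A3) were called higher and 0 lower, where 8.66% of all 19453 genes tested were called higher and 9.57% lower. At the medium dose 1 gene (HKDC1) was called higher and 1 (TXNIP) lower, where 2.34% and 1.48% of 14082 genes were called. At the low dose 7 of the 9 had an adjusted p, all but TXNIP and ARRDC4, and 0 were called by DESeq2. By that criterion 0.0967% of 9304 genes were called higher and 0.0215% lower. An unadjusted p under 0.05 was found for 6 of the 9, beside 1544 of the 30808 genes with a count. The edgeR test called 1 of the 9, beside 30 of all genes. These counts are descriptive because the genes were selected with the contrasts known. The median log2 fold change of the 9 genes over vehicle was 0.21 at the high dose, against 0.0023 over the 15282 genes averaging a normalised count of at least 10.

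**Figure D1:**
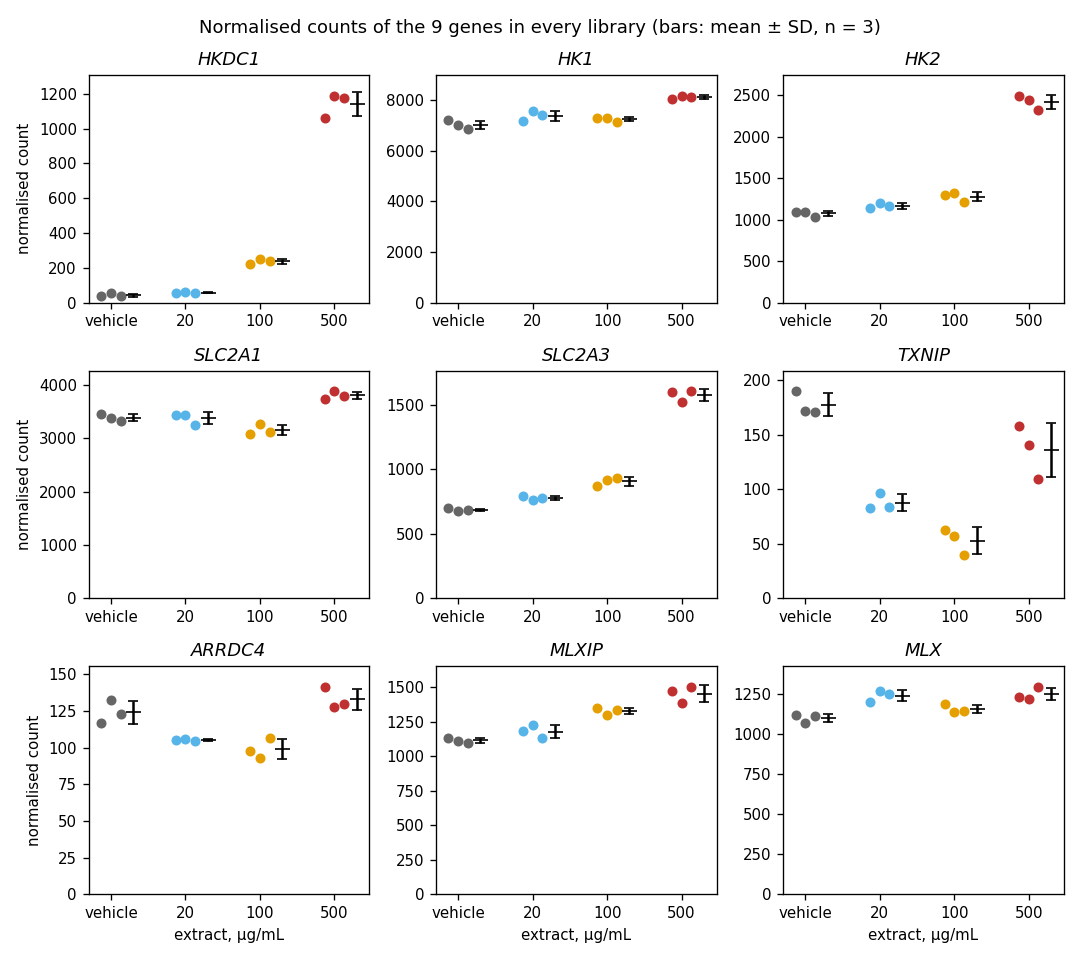
Normalised counts of the 9 genes in each library (points, 3 per group) against the ACD dose in µg/mL, with group means ± SD beside the points and vertical axes that start at 0. HKDC1 climbs from 36.9 to 53.4 in the vehicle libraries to 1062 to 1190 at 500 µg/mL, while TXNIP is lowest, at 39.6 to 62.6, at 100 µg/mL.

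HKDC1 (ENSG00000156510, chromosome 10, 69220332 to 69267552, plus strand, GRCh38) encodes a hexokinase domain protein and is the gene with the widest range of the 9. Its normalised counts in the 3 vehicle libraries were 36.9, 53.4 and 37.5. They were 55.8, 61.2 and 58.6 at the low dose, 224.9, 253.5 and 240.3 at the medium dose and 1062, 1190 and 1175 at the high dose. No library of a dose overlapped a library of the next dose, and the gap between vehicle and the low dose was narrow, at 53.4 against 55.8. The fold change fitted by DESeq2 at the high dose over vehicle was 26.5, a log2 fold change of 4.73 (SE 0.152). The fitted fold change at the medium dose was 5.57, a log2 fold change of 2.48 (SE 0.159), and the low dose gave 0.44 (SE 0.186) and was not called. From low to medium dose the log2 fold change was 2.04 (SE 0.147), and from medium to high dose, which is also a 5-fold step in concentration, it was 2.25 (SE 0.101). In bulk libraries of this kind more cells with the transcript and more transcript per cell cannot be told apart.

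HK1 (ENSG00000156515), the neighbour of HKDC1 on the same strand, starts 2431 bases after the end of HKDC1, at chromosome 10, 69269984 to 69401884. Its vehicle libraries held 7205, 7006 and 6869 normalised counts. The low dose held 7165, 7558 and 7428, the medium dose 7294, 7319 and 7151, and the high dose 8032, 8188 and 8128. Vehicle, low and medium libraries overlapped, and all high dose libraries lay above them. At the high dose its log2 fold change stood at 0.21 (SE 0.028), a 1.16-fold difference that did not reach the fold criterion, beside the 26.5-fold difference of HKDC1.

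HK2 (ENSG00000159399, chromosome 2, 74834127 to 74893359, plus strand), the inducible hexokinase, had 1096, 1095 and 1036 normalised counts in the vehicle libraries and 1135, 1202 and 1165 at the low dose. It had 1301, 1323 and 1213 at the medium dose and 2496, 2439 and 2326 at the high dose. In normalised counts the 4 groups did not overlap, and most of the difference lay between the medium and the high dose. The log2 fold change over vehicle was 0.12 (SE 0.055) at the low, 0.25 (SE 0.055) at the medium and 1.17 (SE 0.052) at the high dose, and 0.92 (SE 0.052) between high and medium dose. HKDC1 had passed the fold criterion at the medium dose, whereas HK2 was called only at the high dose of the 3 doses.

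Per transcript length, the hexokinase pool was HK1 first, then HK2, then HKDC1 in every library. In length-scaled units (TPM, transcripts per 1000000) over the union of each gene's exons, HK1 stood at 199 ± 6.22 (SD, n = 3) in vehicle and 197 ± 2.74 at the high dose. HK2 stood at 35.5 ± 1.46 and 68.3 ± 2.58, and HKDC1 at 1.97 ± 0.447 and 45.2 ± 2.89. On this scale HK1 differed between vehicle and high dose by less than the spread of its libraries. At the medium dose it stood at 174 ± 1.34, with every library below every vehicle library, although its normalised counts overlapped those of vehicle. HK2 stood at 36.4 ± 1.87 at the low and 35.6 ± 1.44 at the medium dose. Its vehicle, low and medium dose libraries overlapped on this scale, although they did not in normalised counts. The share of HKDC1 in the summed hexokinase TPM was 0.830% ± 0.182 in vehicle, 1.08% ± 0.0206 at the low, 4.27% ± 0.245 at the medium and 14.5% ± 0.769 at the high dose. The share of HK1 went from 84.1% ± 0.396 in vehicle to 63.4% ± 0.314 at the high dose, and that of HK2 from 15.0% ± 0.211 to 22.0% ± 0.852. The summed hexokinase TPM was 237 ± 7.88 in vehicle, 219 ± 2.71 at the medium and 311 ± 5.35 at the high dose. With the longest transcript as the length, the HKDC1 share was 0.594% in vehicle and 11.3% at the high dose, and the order of the 3 genes was the same. HK3, the hexokinase of blood cells, had a single count in 1 high dose library.

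**Figure D2:**
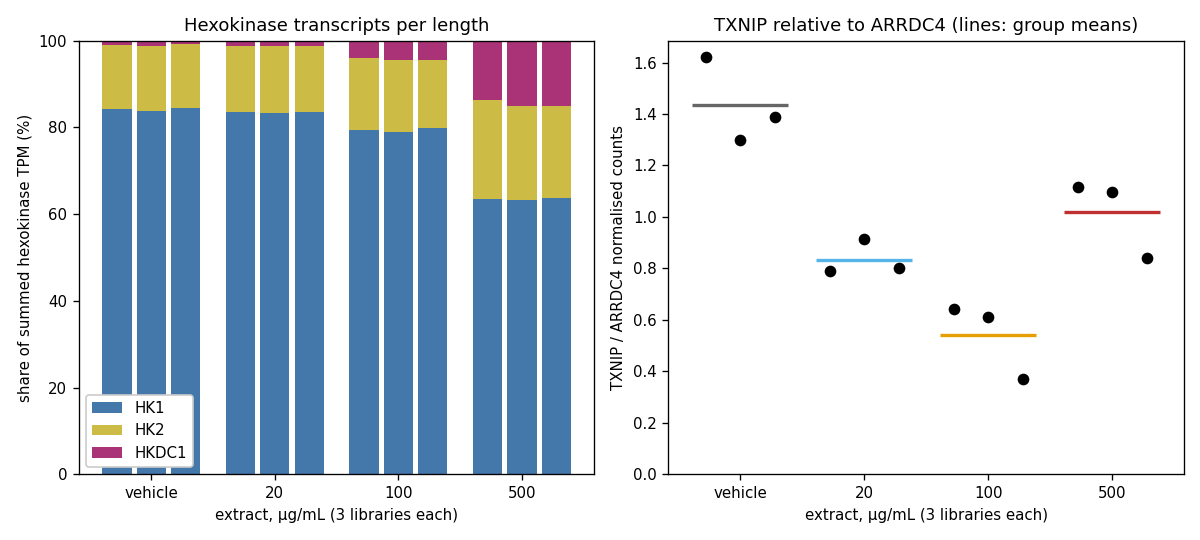
Left, percent of the summed hexokinase TPM held by HK1, HK2 and HKDC1 in each of the 12 libraries, grouped by ACD dose in µg/mL; right, the ratio of TXNIP to ARRDC4 normalised counts in each library, with lines at the group means. HKDC1 takes 13.6% to 15.0% of the pool at 500 µg/mL, and the ratio is lowest at 100 µg/mL.

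SLC2A1 (ENSG00000117394, chromosome 1, 42925353 to 42958893, minus strand) was the more abundant transporter per length, at 99.9 ± 2.63 TPM in vehicle beside 18.5 ± 0.341 TPM for SLC2A3. Its normalised counts were 3453, 3379 and 3325 in vehicle, 3436, 3442 and 3246 at the low dose, 3086, 3268 and 3122 at the medium dose and 3744, 3882 and 3799 at the high dose. Vehicle and low dose overlapped, all medium dose libraries lay below vehicle and all high dose libraries above. The log2 fold changes over vehicle were -0.10 (SE 0.037) at the medium and 0.17 (SE 0.037) at the high dose, both inside the fold criterion. In TPM it stood at 78.7 ± 2.05 at the medium and 96.1 ± 2.21 at the high dose, so on that scale the high dose mean was below that of vehicle.

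SLC2A3 (ENSG00000059804, chromosome 12, 7919230 to 8019007, minus strand), the high-affinity transporter typical of neurons, had 697.8, 679.9 and 682.7 normalised counts in vehicle and 790.6, 764.0 and 776.4 at the low dose. It had 869.4, 918.9 and 931.0 at the medium dose and 1601, 1523 and 1604 at the high dose. Each dose lay above the one below it without overlap in normalised counts. On the TPM scale low and medium dose libraries overlapped, at 19.8 ± 0.118 and 20.6 ± 0.767. The log2 fold change over vehicle was 0.18 (SE 0.062) at the low, 0.40 (SE 0.061) at the medium and 1.20 (SE 0.059) at the high dose, the last a 2.29-fold difference. As a share of the summed TPM of both transporters, SLC2A3 went from 15.6% ± 0.141 in vehicle through 17.4% ± 0.536 and 20.7% ± 0.553 to 27.4% ± 0.917. The near-identical paralog SLC2A14, with which reads can be shared, had no more than 2.09 normalised counts in any library.

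**Figure D3:**
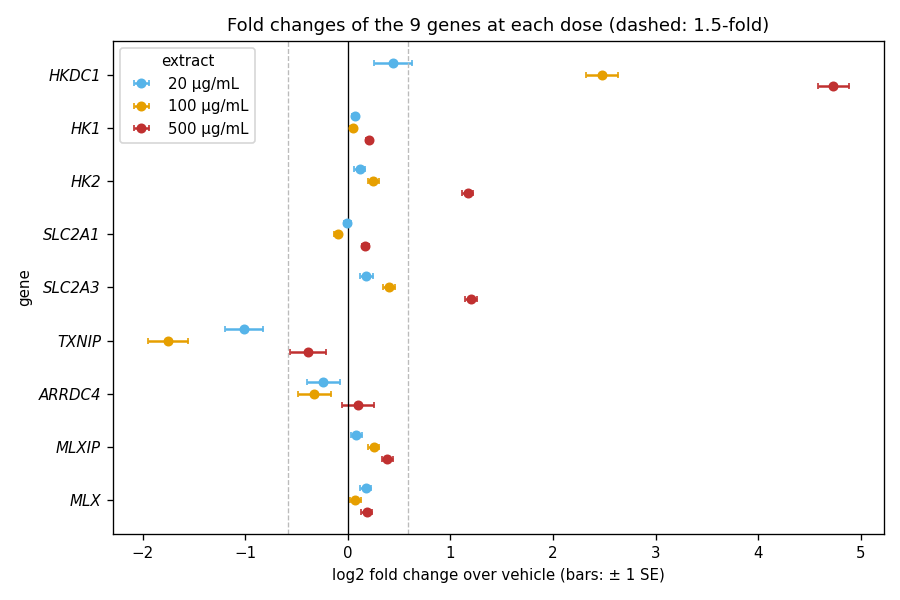
DESeq2 log2 fold changes over vehicle of the 9 genes at 20, 100 and 500 µg/mL ACD (points; bars ± 1 SE), with dashed lines at 1.5-fold. HKDC1 reaches 4.73 and HK2 and SLC2A3 reach 1.17 and 1.20 at 500 µg/mL, whereas TXNIP is at -1.75 at 100 µg/mL and -0.39 at 500 µg/mL.

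MLXIP (ENSG00000175727, chromosome 12, 122078756 to 122147344, plus strand), which encodes MondoA, had 1132, 1114 and 1100 normalised counts in vehicle and 1185, 1224 and 1130 at the low dose. It had 1348, 1301 and 1338 at the medium dose and 1475, 1387 and 1502 at the high dose. Vehicle and low dose overlapped in normalised counts, and medium and high dose libraries lay above both. On the TPM scale vehicle, low and medium dose libraries overlapped, at 15.7 ± 0.345, 15.7 ± 0.827 and 15.8 ± 0.372. The high dose stood at 17.5 ± 0.635 TPM. The log2 fold change was 0.25 (SE 0.054) at the medium and 0.38 (SE 0.054) at the high dose. MLX (ENSG00000108788, chromosome 17, 42567072 to 42573239, plus strand), its partner, had 1116, 1067 and 1112 in vehicle, 1199, 1268 and 1249 at the low, 1185, 1137 and 1142 at the medium and 1233, 1218 and 1292 at the high dose. The low dose and the high dose stood above vehicle by log2 fold changes of 0.17 (SE 0.054) and 0.19 (SE 0.054), and the medium dose lay between, at 0.07 (SE 0.055) and at -0.039 when library totals were used for scaling. In TPM, MLX stood at 50.4 ± 1.06 in vehicle and 48.9 ± 1.33 at the high dose, the opposite order to its normalised counts. Neither subunit reached the fold criterion at any dose. Of the MLX exon bases, 18.2% overlap PSMC3IP on the opposite strand, and the strand setting of the counting is not stated, so reads there may belong to either gene.

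TXNIP (ENSG00000265972, chromosome 1, 145992435 to 145996579, minus strand), the MondoA target whose promoter carries the paired half-sites shown above, had 189.6, 171.7 and 170.7 normalised counts in vehicle. It had 82.7, 96.9 and 83.7 at the low dose, 62.6, 56.8 and 39.6 at the medium dose and 157.4, 140.5 and 109.4 at the high dose. The order of the groups was vehicle, high, low and medium from top to bottom, and no neighbouring groups overlapped. By the DESeq2 fit TXNIP was 3.37-fold lower at the medium dose than in vehicle, a log2 fold change of -1.75 (SE 0.199). At the low dose it was 2.02-fold below vehicle (-1.01, SE 0.185), but DESeq2 gave no adjusted p there. Its independent filter set aside genes with a mean normalised count under 263.4 in that comparison. At the high dose the log2 fold change over vehicle was -0.39 (SE 0.177), with a 95% interval of -0.74 to -0.043, and was not called. At the high dose TXNIP was 2.57-fold higher than at the medium dose (1.36, SE 0.202). Between high and medium dose 4 of the 9 genes were called higher (HKDC1, HK2, SLC2A3 and TXNIP), where 4.58% of 16467 genes were called higher and 5.61% lower. Between medium and low dose HKDC1 was called higher and TXNIP lower (-0.74, SE 0.209), where 1.35% and 0.589% of 14082 genes were called, and the TXNIP call was lost without medium replicate 3.

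ARRDC4 (ENSG00000140450, chromosome 15, 97960703 to 97973833, plus strand), the relative of TXNIP under the same factor, had 116.8, 132.3 and 122.8 normalised counts in vehicle and 104.8, 106.1 and 104.6 at the low dose. It had 97.4, 93.2 and 106.5 at the medium dose and 141.2, 127.9 and 130.0 at the high dose. Low and medium dose libraries overlapped each other and lay below vehicle, whereas high dose libraries overlapped vehicle. The log2 fold change was -0.24 (SE 0.163) at the low and -0.33 (SE 0.164) at the medium dose. At the high dose it was 0.10 (SE 0.158), and -0.017 when library totals were used for scaling, and ARRDC4 was not called at the medium or the high dose. In TPM the high dose stood at 5.47 ± 0.281, beside 5.96 ± 0.395 in vehicle. At the low dose it had no adjusted p, for the same reason as TXNIP. The ratio of TXNIP to ARRDC4 normalised counts was 1.44 ± 0.167 (SD, n = 3) in vehicle, 0.834 ± 0.0689 at the low, 0.542 ± 0.148 at the medium and 1.02 ± 0.153 at the high dose. The ratio takes no account of length and shows how both genes moved relative to each other. Per length, TXNIP stood at 9.61 ± 0.618 TPM and ARRDC4 at 5.96 TPM in vehicle, and at 2.42 ± 0.540 and 4.02 ± 0.299 TPM at the medium dose, so their order was the opposite there. TXNIP stood at 6.29 ± 1.14 TPM at the high dose, with every library below every vehicle library.

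TXNIP belonged to a small group of genes with a trough at the medium dose. A gene was placed there when it was called lower at the medium dose than at vehicle and called higher at the high dose than at the medium dose. Of 14082 genes with both tests 5 did so (0.0355%), and TXNIP, which was chosen for part of this pattern, is 1 of them. Among the others were DDIT4L, a relative of the stress gene DDIT4, and the noncoding transcripts WASL-DT and ENSG00000254363. Mean normalised counts in vehicle, low, medium and high dose were 304 ± 30.8, 228 ± 27.5, 162 ± 8.07 and 255 ± 13.2 for DDIT4L (n = 3 each). In the same order WASL-DT had 80.1 ± 8.04, 74.6 ± 4.40, 52.1 ± 9.68 and 79.3 ± 1.57. ENSG00000254363, at a mean of 18.5 over all libraries, had 23.1 ± 1.39 in vehicle and 9.81 ± 3.67 at the medium dose. The size of this group depended on single libraries and was 3 without vehicle replicate 1, high replicate 1 or high replicate 3 and 8 without medium replicate 3.

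The genes most like HKDC1 and TXNIP over the 12 libraries were ranked by Pearson's r of log2(normalised count + 1) among 11263 genes averaging a normalised count of at least 100. The points share 4 dose groups, so r describes the shape over groups. For HKDC1 the highest were SLFN5, RAB39B, ITGB3, GARS1 and GDF15, with r from 0.997 to 0.998, and 0 of these 5 were among the 5 highest by Spearman's rank correlation. Among the glucose genes SLC2A3 had r = 0.967 with HKDC1 (rank 558), MLXIP 0.954 (rank 869) and HK2 0.936 (rank 1264). For TXNIP the highest were ZC3H7A, G3BP2, TDG, RLF and BLM, with r from 0.937 to 0.962, and 3 of the 5 were shared with the Spearman ranking. ARRDC4 had r = 0.773 with TXNIP (rank 114).

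Another 65 genes of glucose handling were grouped in 7 lists by function, and 60 of them had a count. At the high dose 56 were tested, of which 11 were called higher and 5 lower, beside 8.66% and 9.57% of all genes tested. At the medium dose 47 were tested, of which 4 were called higher (MYC, MXD1, DDIT4 and PFKFB2) and 1 lower (SLC2A12), beside 2.34% and 1.48% of all genes. At the low dose 42 were tested and 0 were called by DESeq2 and by edgeR. An unadjusted p under 0.05 was found for 8 of the 60, beside 1544 of 30808 genes. The median log2 fold change over those averaging a normalised count of at least 10 was 0.055 at the high dose, beside 0.0023 over all genes at that level.

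**Figure D4:**
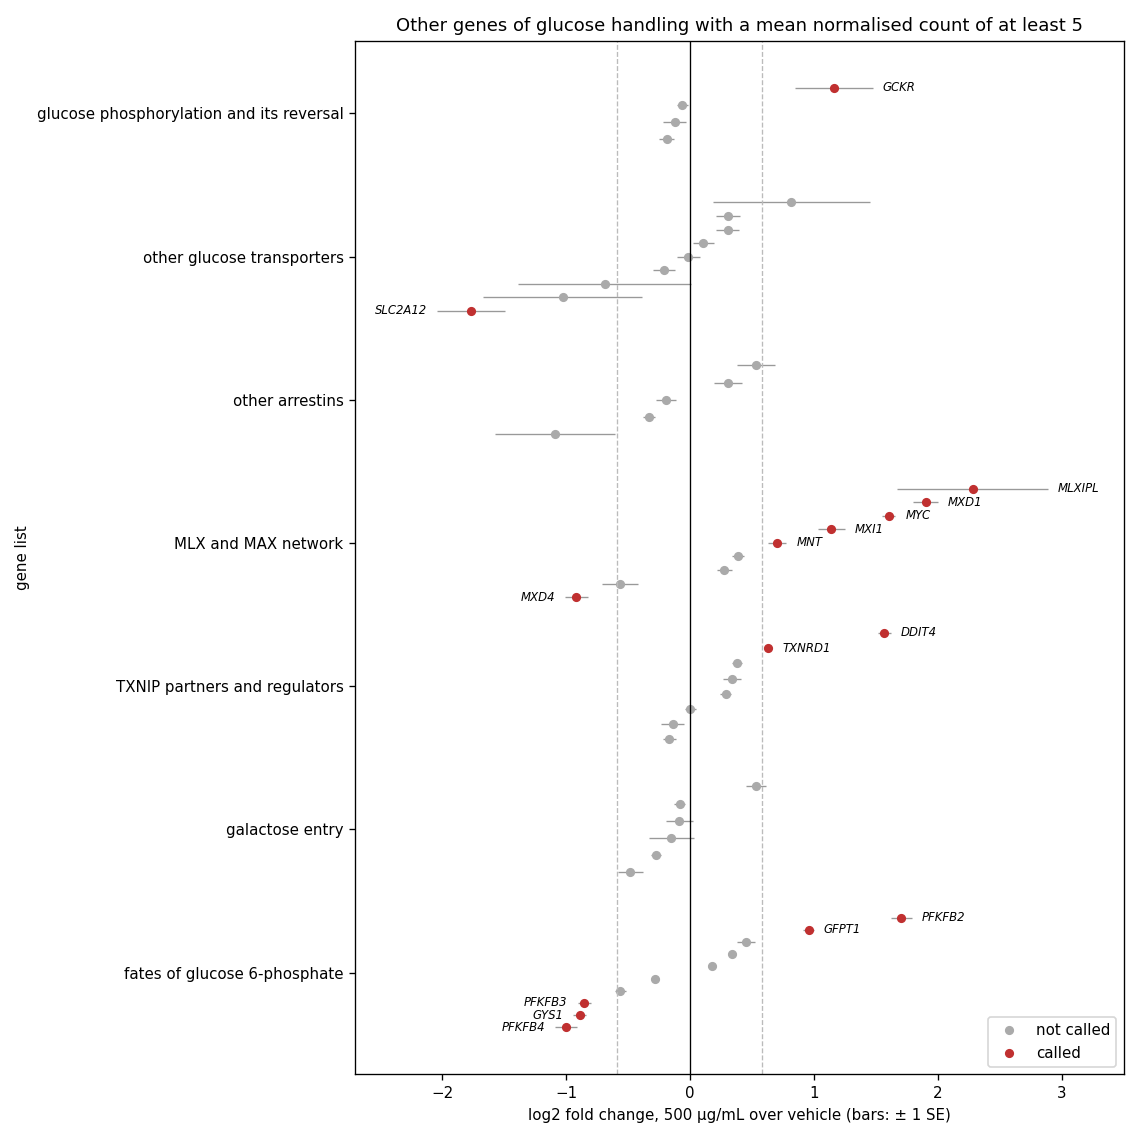
DESeq2 log2 fold changes at 500 µg/mL ACD over vehicle (points; bars ± 1 SE) of the other glucose genes averaging a normalised count of at least 5, in 7 lists by function (genes not reported here are left out), with called genes in red and named and dashed lines at 1.5-fold. The called genes run from SLC2A12 at -1.77 to MLXIPL at 2.28, and the list of other arrestins holds no called gene.

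Of the MLX and MAX network, the family of paired transcription factors that MondoA and MLX belong to, 9 genes were tested at the high dose, with 5 called higher and 1 lower, beside 8.66% and 9.57% of all genes. MYC, the proliferation factor that pairs with MAX, had 901, 875 and 988 normalised counts in vehicle, 1465, 1506 and 1506 at the medium and 2945, 2638 and 2807 at the high dose. Its log2 fold change was 1.60 (SE 0.056) at the high dose, with an adjusted p of 1.43e-180 by DESeq2, and 0.70 (SE 0.058) at the medium dose. MXD1, a MAX partner that opposes MYC, went from 191.5 to 215.5 in the vehicle libraries to 707 to 772 at the high dose, with a log2 fold change of 1.90 (SE 0.0997, adjusted p 2.01e-79 by DESeq2). MXI1 and MNT, which also oppose MYC, rose by log2 fold changes of 1.14 and 0.71, while MXD4 of the same group of repressors fell by 0.92 on that scale and MXD3 stood at -0.57 (SE 0.146), just inside the fold criterion. MLXIPL, which encodes the MondoA relative ChREBP, had 3.1 to 6.2 normalised counts in vehicle and 17.4 to 27.0 at the high dose, a log2 fold change of 2.28 (SE 0.606, adjusted p 5.36e-04 by DESeq2). Per length it stood at 0.816 ± 0.187 TPM at the high dose, beside 17.5 ± 0.635 TPM for MLXIP. The 2 remaining tested genes of highest count, MGA and MAX, stood at 0.39 and 0.28 and were not called. Of the exon bases, 12.2% for MNT, 16.1% for MAX and 24.2% for MXD3 overlap genes on the opposite strand. A further overlap of MXD3, 19.5%, is with RAB24 on the same strand.

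Among TXNIP partners and regulators 2 of 9 tested genes were called, both higher, where 8.66% of all genes were called higher. DDIT4, a stress-induced inhibitor of mTORC1 whose protein binds TXNIP, had 1637 to 1738 normalised counts in vehicle, 3612 to 4058 at the medium and 4679 to 5104 at the high dose. Its log2 fold changes were 1.20 (SE 0.055) and 1.57 (SE 0.054), so DDIT4 was high at the medium dose, where TXNIP was lowest. TXNRD1, the cytosolic thioredoxin reductase, had a log2 fold change of 0.63 (SE 0.031) at the high dose, close to the fold criterion. Thioredoxin itself (TXN), the protein that TXNIP binds, stood at 0.29 (SE 0.044) and was not called. The energy sensor subunit PRKAA1 was at 0.0033 (SE 0.043), whereas its paralog PRKAA2 was at 0.34 (SE 0.073) and was not called. ITCH, the ligase that marks TXNIP for degradation, was at 0.38 (SE 0.038).

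The genes that use glucose 6-phosphate held both directions, with 2 of 11 tested called higher and 3 lower, beside 8.66% and 9.57% of all genes. The 4 bifunctional PFKFB enzymes set the level of fructose 2,6-bisphosphate, an activator of glycolysis. PFKFB2 had 321.5 to 336.2 normalised counts in vehicle and 1030 to 1121 at the high dose, a log2 fold change of 1.71 (SE 0.083, adjusted p 2.36e-91 by DESeq2). PFKFB3 went from 1881 to 1937 in vehicle to 1046 to 1078 at the high dose (-0.85, SE 0.052), and PFKFB4 from 540.6 to 600.5 to 274.1 to 297.5 (-1.0, SE 0.087). GFPT1, the entry enzyme of the hexosamine pathway, rose by a log2 fold change of 0.96 (SE 0.041), while its paralog GFPT2 stood at -0.56 (SE 0.042), just inside the fold criterion. GYS1, the muscle-type glycogen synthase, was lower at -0.89 (SE 0.053). GPI, the enzyme of highest count in this list, converts glucose 6-phosphate to fructose 6-phosphate and stood at -0.28 (SE 0.030).

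Other lists held 1 called gene or fewer at the high dose. SLC2A12 (GLUT12), the 1 called gene of 10 tested transporters, was lower, with 65.6, 88.5 and 99.9 normalised counts in vehicle, 48.7, 45.7 and 50.9 at the medium and 32.4, 16.2 and 27.1 at the high dose (-1.77, SE 0.273, adjusted p 5.31e-10 by DESeq2). Its call at the medium dose (-0.81, SE 0.247) was lost without vehicle replicate 3, and 51.2% of its exon bases overlap TBPL1 on the opposite strand. SLC2A13, the transporter of highest count in that list, stood at 0.11 (SE 0.084). GCKR, which encodes a regulatory protein of hepatic glucose phosphorylation, was the 1 called gene of 5 tested for glucose phosphorylation and its reversal, with 19.3 to 28.7 normalised counts in vehicle and 49.6 to 56.1 at the high dose (1.16, SE 0.315). G6PC3, the ubiquitous glucose 6-phosphatase, stood at -0.063 (SE 0.044). Of the genes that bring galactose, the sugar of L-15 medium, into metabolism, UGP2 had the highest count and stood at -0.27 (SE 0.039). Of the 5 other arrestins 0 were called by DESeq2. All 5 had an unadjusted p under 0.05, beside 9956 of 30808 genes. The edgeR test called 1 (ARRB1, at a mean of 18.4 normalised counts in vehicle), beside 3901 of all genes. ARRDC3, the alpha-arrestin of highest count, stood at -0.33 (SE 0.051). The call of TXNRD1 was lost when library totals were used for scaling, which moved the median of all genes by -0.11 at the high dose, and the medium dose call of PFKFB2 (0.60, SE 0.088) was lost under that scaling and without vehicle replicate 2 or medium replicate 1.

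Total counts per library lay between 18863863 and 24200576, and the 3 replicates of each group differed by more than counting noise. Of 8 astrocytic and glial markers 3 (SLC1A3, GJA1 and SOX9) had a mean normalised count of at least 10. The defining markers GFAP, S100B and ALDH1L1 had at most 5.26 normalised counts in any library, and AQP4 was at 0 in all 12, so the astrocytic label of the line rests on few transcripts here. The summed level of this list was 6960 to 7161 in vehicle and 5026 to 5145 at the high dose, most of it GJA1. In vehicle and at the high dose the means were 4914 and 3727 for GJA1 and 1434 and 1206 for SOX9. SLC1A3 had means of 690 in vehicle, 591 at the low, 359 at the medium and 126 at the high dose. The list of 4 progenitor or mesenchymal markers summed to 142222 to 149915 in vehicle and 151037 to 152709 at the high dose, and SOX2 was near 0. Within it VIM was higher at the high dose than in vehicle, at means of 108048 and 88412, whereas CD44 was lower, at 43678 and 56908, and so was NES, at 64.7 and 214. The 3 neuronal markers summed to 2150 to 2294 and 700 to 756, almost all of it TUBB3. Of the 3 immune markers CD3E was at 0, and the list summed to 3078 to 3249 in vehicle and 3915 to 4200 at the high dose. Its members went in opposite directions, CD68 from 2802 to 2968 in vehicle to 3841 to 4128 at the high dose and the leukocyte marker PTPRC from 257 to 286 to 72.0 to 108. Epithelial and endothelial markers summed to at most 21.0 in any library, and both lists overlapped between vehicle and high dose. The part of the markers that differed between doses in the results for the glucose genes was not tested.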

How the data were processed

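RNA of SW1783 cells was sequenced by the authors as paired ends of 100 bp from strand-specific libraries, trimmed (Trim Galore), mapped to GRCh38 (STAR) and quantified per gene (RSEM). The authors deposited these RSEM expected counts (estimated counts, 8.75% of values not whole) for 60675 IDs, rounded here to whole numbers. Poly(A) selection and the strand setting of RSEM are not given in the sources used here. Per the labels' processing notes the versions were FastQC 0.11.9, Trim Galore 0.6.5, STAR 2.7.3a and RSEM 1.3.3; the study's methods give other versions for some of them. The treatment protocol in the labels describes Poria cocos, whereas titles, treatment labels and the study name ACD, and groups follow the titles.

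All 12 libraries entered 1 DESeq2 1.42.0 model (two-sided Wald test, Benjamini-Hochberg adjustment, independent filtering at 0.05, R 4.3.3), which was checked on simulated data. edgeR 4.0.16 (quasi-likelihood), other scalings, filters and thresholds and leaving out each library were alternatives. TPM was computed here from the counts and GENCODE v44 exon lengths. The annotation held 93.2% of the IDs and 99.9% of counts. Of the 18 same-numbered pairs of libraries 5 had a correlation of deviations over 0.1 (range -0.118 to 0.221), so replicate numbers were not taken as pairs between vehicle and the doses or between high and medium dose. All 3 pairs of low and medium dose exceeded 0.1 (0.158, 0.124 and 0.193), and the fit with a replicate block is given for that comparison. The sources used here do not say whether equal replicate numbers mark paired libraries.

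The 9 genes, the lists, the motifs and the trough criterion were chosen with earlier results of these data known. The named genes were the 9 genes, every other glucose gene called at the high or medium dose, the gene of highest mean count in each list, the 5 genes most like HKDC1 and TXNIP, and all genes with a trough at the medium dose; some of these, though counted, are not reported here. Other genes named, such as TXN, MXD3, ITCH, MGA, MAX, PRKAA1, PRKAA2 and GFPT2, were chosen after their values were seen.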

Additional observations from a re-analysis of the deposited data

How the results depend on the processing

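The number of the 9 genes called was 3 at the high, 2 at the medium and 0 at the low dose over vehicle, 4 between high and medium dose and 2 between medium and low dose. Without the fold criterion these numbers were 7, 6, 1, 8 and 4, and the share of all genes called that way is not given here. In the same order, 8, 7, 6, 9 and 6 of the 9 genes had an unadjusted p under 0.05. Of 30808 genes with a count, 9956, 5584, 1544, 7787 and 4121 did so. At the low dose edgeR and DESeq2 without independent filtering each called 1 gene, TXNIP. A Wald test against the 1.5-fold threshold called 1 gene between medium and low dose. Leaving out 1 library at a time gave 3 to 3 genes at the high, 2 to 2 at the medium and 0 to 0 at the low dose, 4 to 4 between high and medium dose and 1 to 2 between medium and low dose, the 1 without medium replicate 3. Of the other 65 glucose genes 16 were called at the high and 5 at the medium dose. Without the fold criterion they were 39 and 19, again with no share of all genes given here. The threshold test called 1 at the medium dose. Leaving out 1 library gave 16 to 19 at the high, 4 to 6 at the medium and 0 to 0 at the low dose. The 5 genes with a trough at the medium dose became 9 with edgeR, 9 with library totals, 142 without the fold criterion, 1 with the threshold test and 3 to 8 when 1 library was left out; TXNIP was among them in each of these settings and ARRDC4 in none. With a replicate block the calls of the 9 genes were again 3 at the high, 2 at the medium and 0 at the low dose and 4 between high and medium dose. Between medium and low dose, where all same-numbered libraries had a correlation of deviations over 0.1, they were again 2 (HKDC1 and TXNIP). The block changed none of these calls. Of 855 log2 fold changes of the 9 genes under 19 alternatives, 833 moved by less than 1 SD between replicates, 0 called values changed sign, and the largest move was 0.213. The 22 larger moves arose with library totals as size factors, which shift the median of all genes by -0.11 at the high and at the medium dose. Unless stated, the cause of these changes was not tested. Counts of 39.6 to 189.6 limit the precision for TXNIP, whose SE ran from 0.177 to 0.209.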
